A study of Mus musculus with 12 samples.

Results

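Expression of 10 genes for secreted plasma proteins of the liver was followed in mouse pancreatic tumours: Alb, Ttr, Trf, Apoa1, Apoa2, Apob, Hp, Hpx, Ahsg and Serpina1a. They were chosen by name, with earlier results of these data known. All 10 were found by their Ensembl IDs among the 52636 genes of the expression tables. On GRCm38 with GENCODE M21, Apob (ENSMUSG00000020609) lies at chr12:7977648-8016835, Trf (ENSMUSG00000032554) at chr9:103204001-103230444, Hp (ENSMUSG00000031722) at chr8:109575128-109579172 and Alb (ENSMUSG00000029368) at chr5:90460897-90476602. The tumours were pancreatic ductal adenocarcinomas of KPC mice on a mixed C57BL/6 and 129 background, and the study asked what loss of 1 copy of Cdh11, the gene for the adhesion protein cadherin 11, and the cytotoxic drug gemcitabine do to such tumours. RNA of snap-frozen tumours was sequenced as total RNA after removal of ribosomal RNA, with 1 library per mouse and 3 mice in each of 4 groups. The groups were KPC/CDH11+/- mice given gemcitabine, KPC/CDH11+/+ mice given gemcitabine, untreated KPC/CDH11+/- mice and untreated KPC/CDH11+/+ mice, called heterozygous and wild-type below. KPC names a model in which tumour-driving alleles are switched on by a Cre recombinase in the pancreatic epithelium, so every group carries the tumour alleles and the stroma of each tumour comes from the host. The age of the mice, the dose and schedule of the drug and the tissues that lack the Cdh11 allele are not stated in the labels.

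Hepatocytes make most plasma proteins and release them into the blood, under the control of transcription factors such as HNF1, HNF4 and C/EBP. Several of these genes are also used elsewhere: Apob and Apoa1 by absorptive cells of the intestine, which pack dietary fat into lipoprotein particles, Ttr by the choroid plexus and islet cells, and Trf by several cell types outside the liver. Hp is an acute phase gene, raised in the liver during inflammation. In a bulk tumour library, fewer cells of a type and less RNA per cell cannot be told apart.

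Promoters are shown for Apob, the most abundant member by count in most libraries, and for Alb and Serpina1a, both of low level, to set their motifs side by side. The sequences run from 250 bases before to 50 bases after the start site, as given by RefSeq on GRCm38.p6. Apob lies at chr12:7977427-7977726 on the forward strand, Alb at chr5:90460620-90460919 on the forward strand and Serpina1a at chr12:103863570-103863869 on the reverse strand. Capitals mark the motifs searched: GTTAAT of HNF1, CAAAGTCC of HNF4 and TTGCNNAA of C/EBP on both strands, and the TATA box TATAAA on the forward strand only.
Apob: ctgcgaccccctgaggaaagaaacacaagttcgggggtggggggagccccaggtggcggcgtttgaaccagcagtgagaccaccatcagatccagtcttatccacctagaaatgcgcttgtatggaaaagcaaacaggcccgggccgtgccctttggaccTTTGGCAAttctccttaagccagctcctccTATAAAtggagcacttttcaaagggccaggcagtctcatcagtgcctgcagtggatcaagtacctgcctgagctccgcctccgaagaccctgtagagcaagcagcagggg
Alb: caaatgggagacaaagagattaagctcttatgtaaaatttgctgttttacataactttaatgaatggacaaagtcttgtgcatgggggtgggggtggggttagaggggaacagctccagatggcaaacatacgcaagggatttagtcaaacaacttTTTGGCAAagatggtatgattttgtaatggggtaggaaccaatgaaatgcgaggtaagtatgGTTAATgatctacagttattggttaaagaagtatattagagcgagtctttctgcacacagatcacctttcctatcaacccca
Serpina1a: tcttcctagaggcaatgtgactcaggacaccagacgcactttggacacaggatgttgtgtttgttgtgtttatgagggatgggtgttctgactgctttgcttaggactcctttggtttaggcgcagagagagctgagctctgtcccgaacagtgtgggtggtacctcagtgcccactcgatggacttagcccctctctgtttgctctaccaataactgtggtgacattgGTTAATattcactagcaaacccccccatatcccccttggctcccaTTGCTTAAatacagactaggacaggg
Apob and Alb both held a reverse-strand C/EBP match, printed as TTTGGCAA, whose first printed base lay 90 bases before the start site of Apob and 94 before that of Alb. Serpina1a held a forward-strand C/EBP match, TTGCTTAA, which began at base 25 when the start site is base 1. A GTTAAT match began 32 bases before the start of Alb and 21 before that of Serpina1a, and a TATA box 60 bases before the start of Apob. Of 32841 mouse promoters in the table, 10.8% held the C/EBP letters, 7.10% GTTAAT, 8.32% TATAAA and 1.42% CAAAGTCC. Promoters of 7 of the 10 members were searched, and Trf, Hp and Ttr were not among them. Of those not shown, Hpx and Ahsg held a C/EBP match, Apoa2 only a TATA box and Apoa1 none of the motifs. A match describes the letters only.

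Libraries held between 39388328 and 56559413 counts, and levels are given as CPM, a gene's count divided by its library size, after TMM scaling, and brought to a common total. Cdh11 had 108, 141 and 71.9 CPM in heterozygous gemcitabine tumours, 142, 62.1 and 123 CPM in wild-type gemcitabine tumours, 148, 115 and 73.6 CPM in heterozygous untreated tumours and 225, 282 and 165 CPM in wild-type untreated tumours. The genotype groups were thus apart without the drug, as was true of 15.8% of all genes, and overlapped with it. In untreated mice the log2 fold change of Cdh11, heterozygous over wild-type, was -0.998 (95% interval -1.81 to -0.18). It did not pass the edgeR test at an adjusted p of 0.05 (edgeR adjusted p = 0.329). In treated mice the log2 fold change was -0.02 (95% interval -0.83 to 0.79), so the treated groups are named by their labels. Xist was high in 0 of 3 heterozygous gemcitabine, 3 of 3 wild-type gemcitabine, 1 of 3 heterozygous untreated and 2 of 3 wild-type untreated libraries, so in treated mice sex and genotype cannot be told apart.

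Apob, Trf and Hp carried most of the summed level. Together they held between 94.2% and 99.8% of the summed CPM of the 10 genes in each of the 12 libraries. Apob ranked first in 9 libraries and Trf in 3, namely heterozygous gemcitabine mice 2 and 3 and wild-type untreated mouse 2. Albumin, the most abundant protein of plasma, held at most 0.248% of the sum in any library. Because CPM favours long genes and Apob has 13934 bases of exons against 3320 for Trf, the order was also taken per length, as TPM, which divides each count by exon length before scaling all libraries to the same total. Per length Trf ranked first in 8 libraries and Apob in 4, and the share of Apob, Trf and Hp was 72.4% in wild-type gemcitabine mouse 1, 81.4% in heterozygous untreated mouse 3 and 96.2% to 99.1% in the other 10. Among all genes ranked per length within a library, the median rank over the 12 libraries was 278 for Trf, 399.5 for Apob, 1017.5 for Hp and 25753 for Alb.

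**Figure D1:**
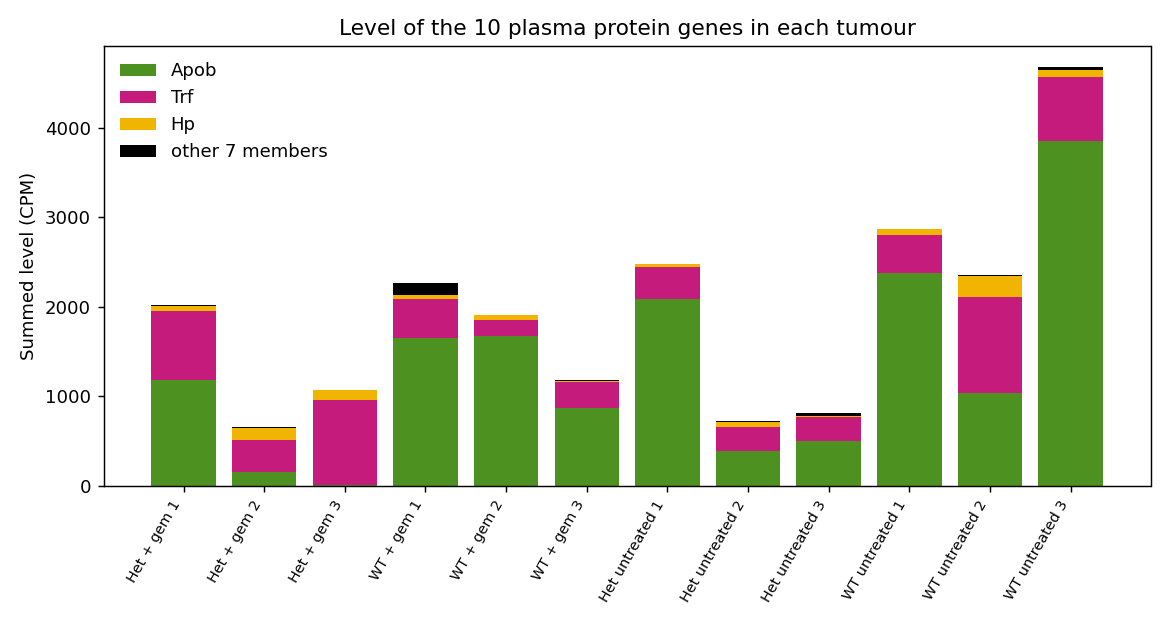
Bars show the summed CPM of the 10 genes in each tumour, split into Apob, Trf, Hp and the other 7 members together. Apob and Trf make up most of every bar, and Apob is nearly missing from heterozygous gemcitabine mouse 3, where it had 8.50 CPM.

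**Figure D2:**
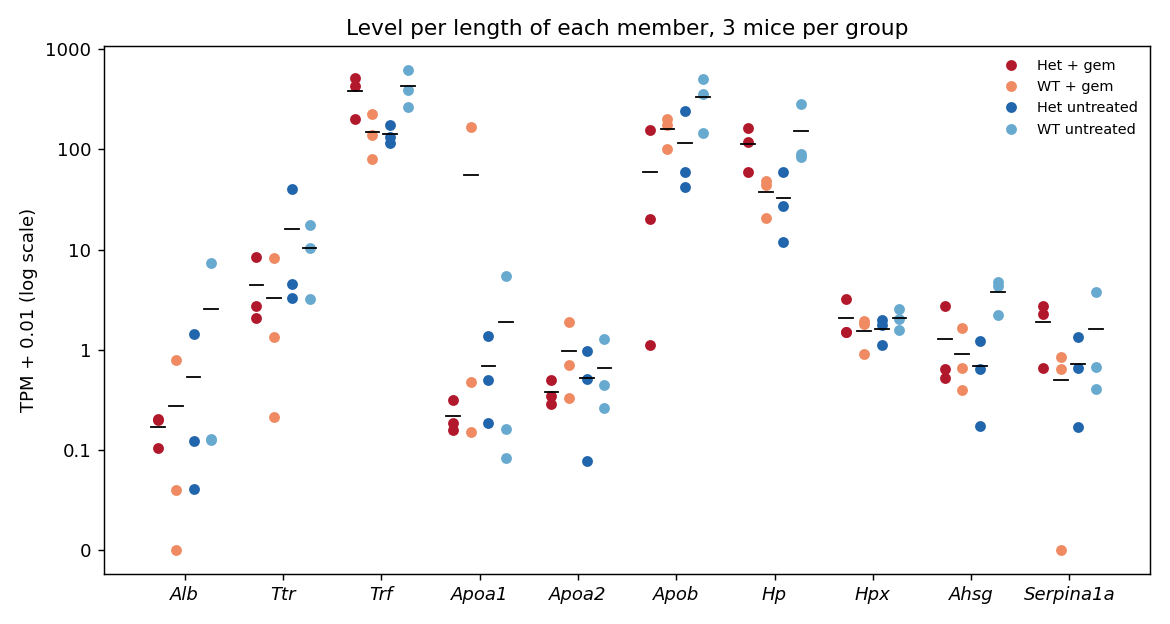
Points show TPM + 0.01 of each member per mouse on a log scale, with the group mean as a line. Trf lies above every other member except Apob in each tumour, Apob at 1.10 TPM lies among the low members in heterozygous gemcitabine mouse 3, Ttr lies above Hp in heterozygous untreated mouse 3, and a single wild-type gemcitabine tumour stands out for Apoa1.

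The hepatocyte label was checked against 21 hepatocyte enzymes and transporters, and the data go against it. Of these 21 genes, 10 stayed under 1 CPM in all 12 libraries, and their summed level lay between 6.85 and 84.4 CPM. Cyp7a1, the rate-limiting enzyme of bile acid synthesis, was picked after its values were seen. It was the only 1 of the 21 with 0 counts in every library, where 3 counts would be between 0.0591 and 0.0719 CPM. Of the list, 4 genes exceeded 10 CPM in at least 1 library. Among them, Cyp2e1 had 14.7 CPM in heterozygous gemcitabine mouse 3 and at most 3.93 CPM elsewhere. The most abundant genes of that list were Hal, a histidine-degrading enzyme that skin also expresses, with 1.16 to 30.8 CPM, and the bile acid transporter Slc10a1, with 1.68 to 6.54 CPM. The sum over the 10 plasma protein genes is therefore described by its leading genes, Apob, Trf and Hp, and not as a hepatocyte signal. Of 33 other liver plasma proteins, 14 stayed under 1 CPM in all libraries, and the list was led by the copper carrier Cp, with 224 to 941 CPM.

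Among the carrier proteins, albumin was close to undetected. Alb had 0.242, 0.233 and 0.120 CPM in heterozygous gemcitabine tumours, 1.05, 0.0465 and 0 CPM in wild-type gemcitabine tumours, 0.0439, 0.173 and 2.00 CPM in heterozygous untreated tumours and 0.132, 0.138 and 9.48 CPM in wild-type untreated tumours. Its highest value, in wild-type untreated mouse 3, fell in the library with the highest sum of 15 acinar genes, 598 CPM, and the part of acinar tissue in it was not tested. Ttr, which carries thyroid hormone and the retinol-binding protein, ranged from 0.163 to 28.7 CPM with all groups overlapping, and in heterozygous untreated mouse 3, its highest library, it was the third most abundant member.

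Trf, the iron carrier transferrin, was high in every tumour. It had 776, 356 and 953 CPM in heterozygous gemcitabine tumours, 437, 182 and 285 CPM in wild-type gemcitabine tumours, 361, 258 and 263 CPM in heterozygous untreated tumours and 421, 1065 and 718 CPM in wild-type untreated tumours. All heterozygous untreated tumours lay below all wild-type untreated tumours, whereas the treated genotype groups overlapped, with the heterozygous mean on top.

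Of the apolipoproteins, Apob varied most in absolute terms. Apob, the structural protein of low-density lipoprotein and chylomicron particles, had 1178, 149 and 8.50 CPM in heterozygous gemcitabine tumours, 1653, 1669 and 869 CPM in wild-type gemcitabine tumours, 2086, 392 and 500 CPM in heterozygous untreated tumours and 2379, 1039 and 3850 CPM in wild-type untreated tumours. Within 1 group the 3 heterozygous gemcitabine tumours spanned 8.50 to 1178 CPM, and all groups overlapped. Apoa2, a protein of high-density lipoprotein, stayed between 0.0219 and 0.623 CPM.

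Apoa1, the main protein of high-density lipoprotein, was a signal of 1 tumour. It had 120 CPM in wild-type gemcitabine mouse 1 and between 0.0461 and 3.67 CPM in the other 11. The same tumour held intestinal genes. Apoa4, listed both as an enterocyte gene and among the other liver plasma proteins, had 279.6 CPM there, against at most 0.312 CPM in any other library. The sum of 13 enterocyte genes, Apoa4 included, was 553 CPM, against 48.6 to 190 CPM. Vil1 and Rbp2, which all tumours expressed, were left out of a second sum after their values were seen. Together they were higher in wild-type gemcitabine mouse 3, where the sum was 190 CPM with them and 10.4 CPM without. In wild-type gemcitabine mouse 1 the sum without them was 464 CPM, of which Apoa4 gave 279.6 CPM, against 1.44 to 13.0 CPM elsewhere. The hepatocyte enzymes Cyp3a11 and Cps1, both also expressed in intestine, reached 48.7 and 19.5 CPM in this tumour and at most 0.0922 and 0.377 CPM elsewhere. Mttp, which loads lipid onto Apob, had 48.1 CPM there and 3.64 to 14.1 CPM elsewhere, whereas Apob itself, at 1653 CPM, lay within the range of the other wild-type tumours. The part of intestinal tissue in the Apoa1 value was not tested.

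**Figure D3:**
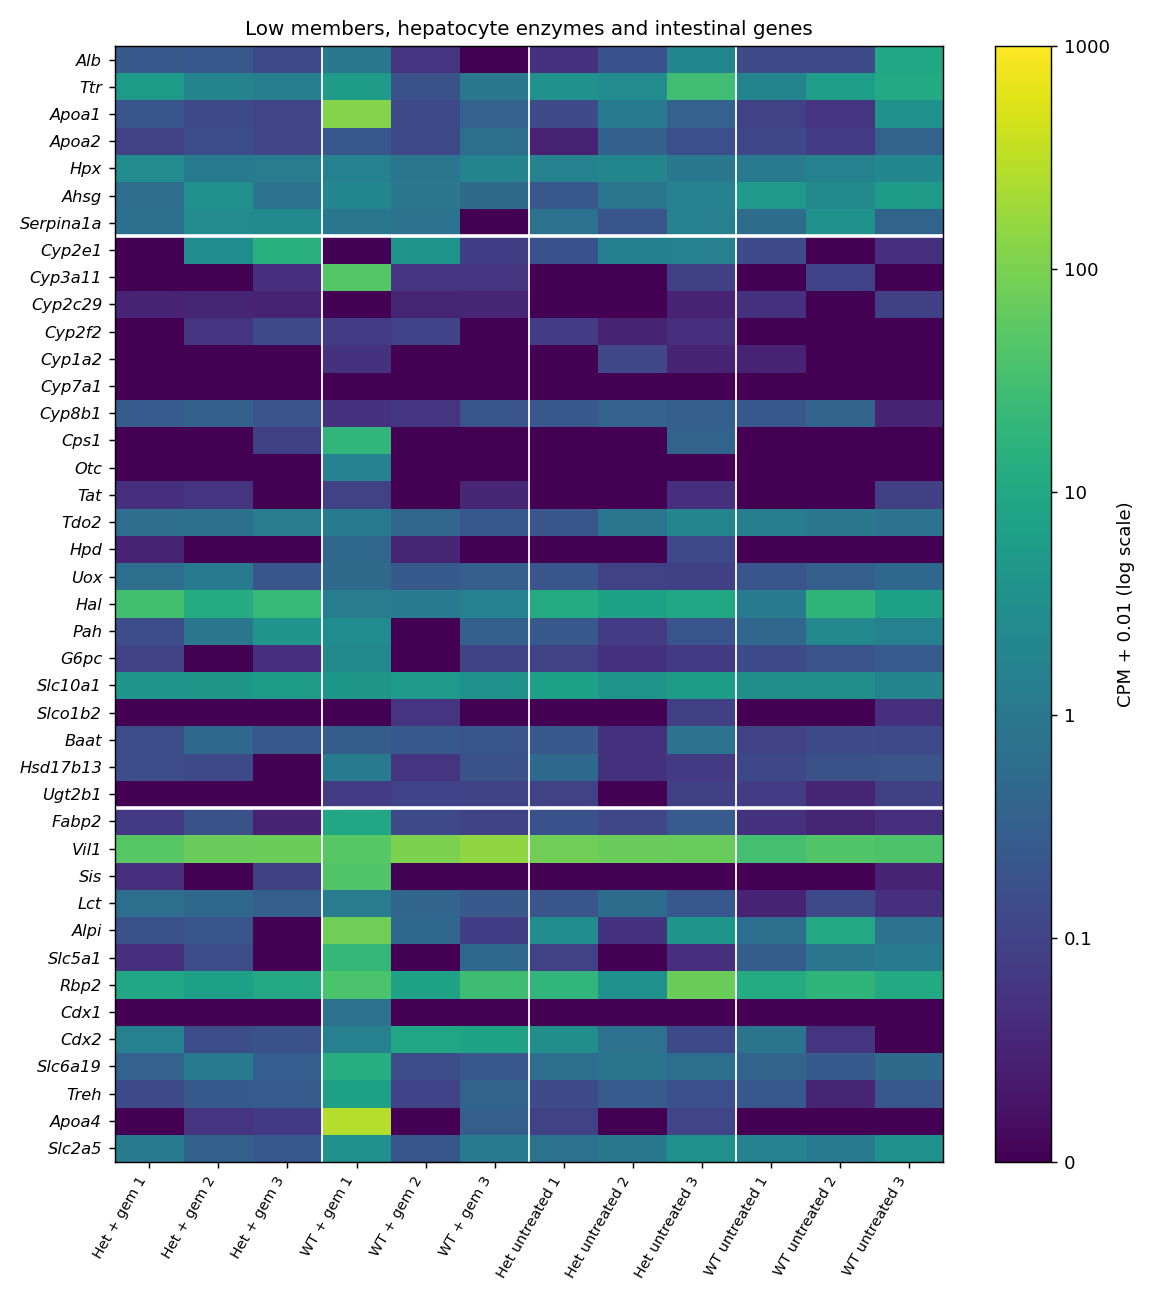
Colour shows CPM + 0.01 on a log scale for the 7 low members, the 21 hepatocyte genes and the 13 enterocyte genes, one column per tumour, with white lines between the 3 blocks. Wild-type gemcitabine mouse 1 is bright for Apoa1, Apoa4, Sis, Alpi and Cyp3a11, and most hepatocyte genes are dark in every tumour.

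The scavengers differed in level. Hp, haptoglobin, which binds free haemoglobin, had 51.7, 141 and 105 CPM in heterozygous gemcitabine tumours, 41.2, 53.1 and 20.8 CPM in wild-type gemcitabine tumours, 26.8, 63.0 and 11.6 CPM in heterozygous untreated tumours and 64.1, 237 and 80.0 CPM in wild-type untreated tumours. Heterozygous untreated tumours lay below wild-type untreated ones, by a narrow margin between the nearest mice, and wild-type tumours given gemcitabine lay below those without it. Hpx, hemopexin, which binds free haem, was the steadiest member, at 0.906 to 2.56 CPM in all 12 libraries. Of 17 acute phase genes, the most abundant were Cp and the antiprotease Serpina3n, which had between 128 and 632 CPM.

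Ahsg, the mineral-binding fetuin-A, had 0.605, 3.17 and 0.762 CPM in heterozygous gemcitabine tumours, 2.10, 0.952 and 0.527 CPM in wild-type gemcitabine tumours, 0.219, 0.928 and 1.61 CPM in heterozygous untreated tumours and 4.94, 2.47 and 5.22 CPM in wild-type untreated tumours. Heterozygous untreated and wild-type gemcitabine tumours all lay below the wild-type untreated ones. Serpina1a, an alpha-1-antitrypsin gene that inhibits neutrophil elastase, ranged from 0 to 3.50 CPM. Its value is uncertain because the transcripts of Serpina1b, Serpina1c, Serpina1d and Serpina1e were 97.1%, 98.6%, 96.6% and 96.5% identical to it over about 1333 bases, and reads can be split among copies. Serpina1b was the most abundant copy in every library, at 0.743 to 12.1 CPM, and Serpina1f had no counts.

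The summed level was not tested, and in 2 comparisons the direction of its ratio in CPM rested on Apob. It averaged 1248 ± 697 CPM in heterozygous gemcitabine tumours, 1783 ± 553 CPM in wild-type gemcitabine tumours, 1336 ± 991 CPM in heterozygous untreated tumours and 3303 ± 1221 CPM in wild-type untreated tumours (SD, n = 3 each). In CPM, wild-type gemcitabine tumours all lay below wild-type untreated ones, and the groups of the other 3 comparisons overlapped. Per length, heterozygous untreated tumours also all lay below wild-type untreated ones, at 226 to 456 TPM against 721 to 1075 TPM. The log2 ratio of group means was -0.51 for heterozygous over wild-type with gemcitabine, but 0.47 per length and 1.06 without Apob, and it was -1.05 without heterozygous gemcitabine mouse 1 and -0.21 without mouse 2 of that group. For gemcitabine over untreated in heterozygous mice it was -0.10, but 0.87 per length and 1.22 without Apob. That ratio also turned with single libraries, being 0.71 without heterozygous untreated mouse 1, 0.21 without heterozygous gemcitabine mouse 2 and -0.63 without heterozygous gemcitabine mouse 1. For heterozygous over wild-type untreated tumours it was -1.31, -1.60 per length, -1.36 without Apob and -2.11 without heterozygous untreated mouse 1. For gemcitabine over untreated in wild-type mice it was -0.89, -1.20 per length and -1.19 without Apob.

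In heterozygous against wild-type untreated tumours, 9 of 10 members had a negative log2 fold change, with a median of -1.27 against 0.04 over the 24065 genes tested. That count includes Apoa2 at -0.09 and Hpx at -0.06, and the direction of Alb, Ttr, Apoa1, Apoa2, Hpx and Serpina1a turned in this comparison when single libraries were left out. No member passed edgeR's quasi-likelihood test at an adjusted p of 0.05, where 0.0166% of all genes did, and none passed with DESeq2 or limma voom. At an unadjusted p under 0.05 there were 3 members, against 12.2% of all genes. Trf had a log2 fold change of -1.32 ± 0.44 (SE, edgeR adjusted p = 0.284), Hp one of -1.91 ± 0.68 (edgeR adjusted p = 0.308) and Ahsg one of -2.19 ± 0.82 (edgeR adjusted p = 0.332). These 3 members were the ones whose groups did not overlap, as was true of 15.8% of all genes. Apob had -1.29 ± 1.20 and Ttr, the only positive member, 0.83 ± 1.20.

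In gemcitabine-treated tumours, 6 of 10 members were positive for heterozygous over wild-type, with a median log2 fold change of 0.27 against -0.03 over all genes. None passed the edgeR test, where 0.00416% of all genes did, and none passed with DESeq2 or limma voom. An unadjusted p under 0.05 was reached by 2 members and by 7.55% of all genes. They were Trf, at 1.21 ± 0.44 (edgeR adjusted p = 0.585), and Apoa1, at -8.14 ± 2.62 (edgeR adjusted p = 0.546), which was -0.74 without wild-type gemcitabine mouse 1. Apob had -1.65 ± 1.21. With Xist-high libraries as a covariate it was 0.26, which does not separate sex from genotype. In treated mice the covariate coincides with genotype, so its effect is estimated from the untreated groups only. No member had groups without overlap, against 13.7% of all genes.

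Gemcitabine against no treatment in wild-type mice gave a median log2 fold change of -1.34 over the members, against 0.01 over all genes. With edgeR, DESeq2 and limma voom no member passed, and with edgeR 0.0% of all genes did. At an unadjusted p under 0.05 there were 4 members, against 8.6% of all genes: Trf at -1.28 ± 0.44, Hp at -1.73 ± 0.67, Ahsg at -1.82 ± 0.81 and Apoa1 at 4.98 ± 2.21. Hp and Ahsg had groups without overlap, as had 13.7% of all genes. Without wild-type gemcitabine mouse 1 the value of Apoa1 was -2.40.

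Gemcitabine against no treatment in heterozygous mice gave a median log2 fold change of -0.29, against -0.03 over all genes. No member passed with edgeR, where 0.00831% of all genes did, or with DESeq2 or limma voom. Trf, at 1.24 ± 0.44, and Hp, at 1.55 ± 0.67, were the 2 members with an unadjusted p under 0.05, against 7.9% of all genes. No member had groups without overlap, against 12.7% of all genes.

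**Figure D4:**
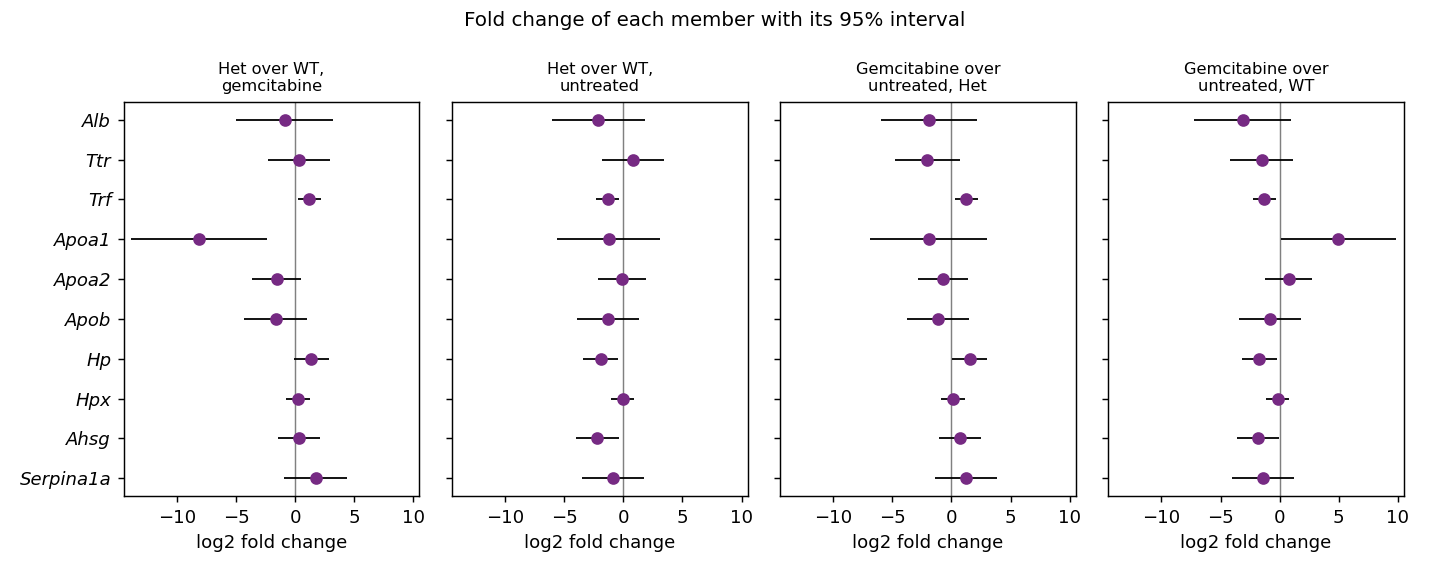
Points show the edgeR log2 fold change of each member in the 4 comparisons and lines its 95% interval. The points of Trf and Hp lie right of 0 for heterozygous over wild-type with gemcitabine and left of 0 without it, and the interval of Apoa1 is wide in all 4 panels.

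In the difference of the gemcitabine effects between genotypes, Trf and Hp had the smallest p-values of the members, while Apoa1 had the difference of largest size, -6.90 ± 3.08. The difference, heterozygous minus wild-type, was 2.53 ± 0.62 on the log2 scale for Trf (95% interval 1.16 to 3.90) and 3.28 ± 0.95 for Hp (95% interval 1.19 to 5.37), each with an edgeR adjusted p of 0.252. No member passed with edgeR, where 0.00831% of all genes did, or with limma voom, whereas DESeq2 called both, with adjusted p = 0.0119 for Trf and 0.0240 for Hp. Over the settings tried the adjusted p ran from 0.0119 to 0.673 for Trf and from 0.0240 to 0.684 for Hp. DESeq2 also called 656 genes in all in this comparison, against 2 with edgeR. An unadjusted p under 0.05 was reached by 4 members, with Apoa1 and Ahsg beside them, and by 12.7% of all genes.

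Genes of macrophages varied with Trf across the tumours. For heterozygous over wild-type, 11 of 11 macrophage genes had a negative log2 fold change in untreated tumours and 11 of 11 a positive one with gemcitabine, none past the edgeR test. Islet genes turned likewise, with 12 of 13 tested genes negative in untreated tumours, at a median of -4.44. With gemcitabine 12 of 13 were positive, at 1.34, and in the difference of the gemcitabine effects 13 of 13, at 5.92. In the same order, the counts were 10, 11 and 13 of 13 tested acute phase genes and 10, 9 and 10 of 12 neutrophil genes. For other liver plasma proteins they were 13, 12 and 16 of 19. Over all 24065 genes tested they were 11145, 11286 and 11023. Acinar genes did not turn, with 12 of 14 negative in untreated tumours and 13 of 14 with gemcitabine. Duct epithelium genes turned the other way, with 12 of 13 positive and then 11 of 13 negative. The sum of 11 macrophage genes was 1632 to 3165 CPM in heterozygous gemcitabine tumours, 722 to 1658 CPM in wild-type gemcitabine tumours, 768 to 1342 CPM in heterozygous untreated tumours and 1000.5 to 4242 CPM in wild-type untreated tumours. Over the 12 libraries log2 Trf and the log2 sum had r = 0.875 (permutation p = 2.2e-04, adjusted over 80 relations 0.0176) and rho = 0.818 (permutation p adjusted 0.160). Without the 2 libraries farthest from the median r was 0.751, and after removal of the group means 0.785. For Hp the r was 0.70 (permutation p adjusted 0.163), 0.444 without the 2 farthest libraries and 0.454 after removal of the group means. With the sum of 15 islet genes Hp had r = 0.691 (permutation p adjusted 0.163). The other relation past the threshold on r was Serpina1a with 13 duct epithelium genes, at r = -0.870 (permutation p adjusted 0.0288) and rho = -0.727 (permutation p adjusted 0.254), and -0.635 without the 2 farthest libraries. None of the 80 relations passed on both measures. The members and lists were chosen with earlier results of these data known, which the adjustment does not cover. The part of macrophages or islet tissue in the Trf and Hp differences was not tested.

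**Figure D5:**
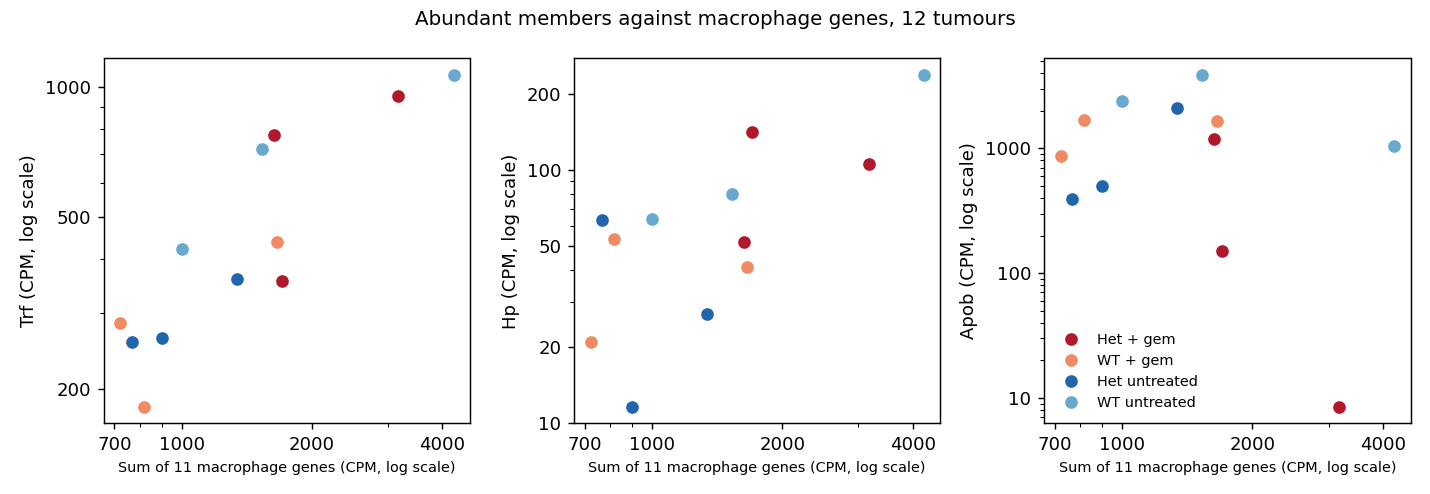
Points show Trf, Hp and Apob in CPM against the sum of 11 macrophage genes in CPM in 12 tumours, on log axes. Trf tends to be higher where the macrophage sum is higher, but was 356 CPM in heterozygous gemcitabine mouse 2, with a sum of 1703 CPM. Apob is lowest in a tumour with a macrophage sum of 3165 CPM.

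The members did not vary as a block. Over the 45 pairs of members the median r of log2 CPM over 12 libraries was 0.214, 13 pairs were negative and 1 exceeded 0.7, Alb with Ttr at 0.732; Trf and Hp had 0.591 and Trf and Apob -0.219. These values are descriptions, since the points share libraries and depth. The genes most like each member, by r over the 12 libraries, were likewise different. Trf was followed most closely by Mrc1, the macrophage mannose receptor, at 0.943, with Gpr15 at 0.916 and Zfp583 at 0.915. Apob was followed by Syt7 at 0.902, Gata4, a transcription factor of stomach and other endoderm, at 0.878, and Cym, a stomach protease gene, at 0.875. Apoa1, high in 1 tumour only, was followed by the intestinal mucin Muc2 at 0.890, Slc51a at 0.876 and Treh at 0.860. Treh is itself on the enterocyte list. The r of Apoa1 with the enterocyte sum was 0.658, and -0.174 without the 2 libraries farthest from the median of that sum. Hp was followed by Sh2d3c at 0.947, Hoxb7 at 0.914 and Zfp979 at 0.913, and Serpina1a by its copy Serpina1d at 0.976, Meox2 at 0.970 and Dusp2 at 0.959. Ttr was followed by Cys1 at 0.918, Gldc at 0.870 and Ccdc152 at 0.861, and Ahsg by Tmem64 at 0.927, Il1f10 at 0.877 and its relative Fetub at 0.874. Of the members of low level, Alb was followed by Gzmb at 0.889, Sept3 at 0.870 and Lect2 at 0.864. Gzmb and Lect2 averaged only 0.163 and 0.466 CPM, so these values rest on few counts. Apoa2 was followed by Tor1aip2 at 0.940, F11r at 0.928 and Ufc1 at 0.920, and Hpx by Gpr107 at 0.890, Adprhl2 at 0.887 and Zbtb17 at 0.879. The mean of the 10 scaled members was closest to Dnm3 at 0.922, Selenon at 0.920 and Tsc22d3 at 0.894, followed by Sept3, Tcim, Gnao1, Dpysl3, Prrg3, P4ha3 and Cd59a at 0.867 to 0.883.

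No gene of the other lists passed the edgeR test in any of the 5 comparisons. Gc, the vitamin D carrier of plasma, had 16.4, 18.5 and 4.65 CPM in heterozygous gemcitabine tumours, 23.6, 8.20 and 9.87 CPM in wild-type gemcitabine tumours, 1.10, 2.03 and 2.32 CPM in heterozygous untreated tumours and 12.7, 60.1 and 32.0 CPM in wild-type untreated tumours. Its log2 fold change for heterozygous over wild-type untreated tumours was -4.26 ± 0.73 (edgeR adjusted p = 0.114). The 13 tested islet genes had a median of -4.44 in the same comparison, and the sum of 15 islet genes was 2.22 to 7.60 CPM in heterozygous untreated tumours, against 22.1 to 281 CPM in wild-type untreated tumours. The 14 tested acinar genes had a median of -8.29, and the sum of 15 acinar genes was 10.3 to 35.4 CPM in heterozygous untreated tumours, against 11.9 to 598 CPM in wild-type untreated tumours. The part of islet and acinar tissue in the values of Gc and of the members was not tested. Among 20 receptors and partners, the scavenger receptor Lrp1 was the most abundant, and their sum was 1677 to 3218 CPM in heterozygous untreated tumours against 3824 to 4271 CPM in wild-type untreated tumours. All 16 liver-enriched transcription factors were tested and exceeded 1 CPM in at least 1 library, led by Hnf4a with 49.7 to 158 CPM.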

How the data were processed

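RNA of 12 snap-frozen tumours was sequenced as stranded, ribosome-depleted total RNA, per the labels' protocols. The deposited values are expected counts per Ensembl gene, which the authors made with RSEM on GRCm38, per the submitters' processing notes; all were whole numbers. Which aligner, annotation release, RSEM version and strand setting were used was not given in the sources used here. Reads that map to several genes are shared out by RSEM according to estimated abundance. The combined table of all samples held the same values as the 12 library files and was otherwise left out.

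Of 52636 genes, 12076 had no count and 52489 had a symbol. Tests used edgeR 4.0.16 under R 4.3.3 (filterByExpr, TMM, robust quasi-likelihood fit, 1 mean per group over 12 libraries), with Benjamini-Hochberg adjustment over the 24065 genes left; all 10 members passed this filter. Alternatives were DESeq2 1.42.0, limma voom 3.58.1, other scalings, no filter, a replicate block, an Xist covariate and leaving out each library. TPM used merged exon lengths of GENCODE M21. Correlations used log2 CPM (prior count 2) and 100000 permutations. Copies were compared with blastn 2.17.0. Intervals of 0 counts cover counting error only.

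Each library is 1 mouse, and same-group libraries differed beyond sampling noise. Replicate numbers did not pair the samples: same-numbered libraries had correlations of -0.247 to 0.173. The members and lists were chosen with earlier results of these data known. Named were all members, the 3 genes most like each member and the 10 most like their mean, and from each list the most abundant genes. Cyp7a1, Cps1, Sis and Mttp fall outside this rule and were chosen after their values were seen.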

Additional observations from a re-analysis of the deposited data

How the results depend on the processing

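No member was called under any alternative other than DESeq2, which called 2 members, Trf and Hp, in the difference of the gemcitabine effects; the cause was not tested. The smallest adjusted p with 1 library left out was 0.164. Of 600 member values with a library left out 35 changed direction, and of 388 other recomputed values 8 did. With 1 library left out, the log2 fold changes that changed direction ran over the following ranges. For heterozygous over wild-type untreated tumours they were -4.87 to 2.43 for Alb, -1.14 to 1.53 for Ttr, -2.36 to 2.94 for Apoa1, -1.01 to 0.94 for Apoa2, -0.30 to 0.19 for Hpx, -1.69 to 0.73 for Serpina1a. For heterozygous over wild-type treated tumours they were -1.46 to 2.95 for Alb, -0.56 to 2.31 for Ttr, -0.23 to 0.43 for Hpx, -0.80 to 1.03 for Ahsg. For treated over untreated wild-type tumours they were -6.95 to 1.42 for Alb, -2.40 to 9.16 for Apoa1, -0.15 to 1.79 for Apoa2, -0.38 to 0.086 for Hpx, -1.91 to 0.23 for Serpina1a. For treated over untreated heterozygous tumours they were -2.45 to 0.85 for Alb, -1.22 to 0.21 for Apoa2, -0.34 to 0.36 for Hpx, -0.42 to 1.39 for Ahsg. For the difference of the gemcitabine effects they were -3.31 to 5.07 for Alb, -1.39 to 1.48 for Ttr, -11.08 to 0.49 for Apoa1, -2.86 to 0.79 for Apob, -0.17 to 0.52 for Hpx. Other changes of direction were Apoa1 in untreated tumours (0.38 with limma voom); Alb (1.07 with limma voom) and, with the Xist covariate, Ttr (-0.76), Apob (0.26) and Ahsg (-0.28) in treated tumours; and, in the difference of effects, Ttr (0.88 with limma voom) and Apob (1.15 with the Xist covariate). With the replicate number as a block, that difference was 0.42 for Ttr, and no call changed. The numbers do not pair the samples. The Xist covariate cannot separate sex from genotype in treated tumours, since its effect is estimated from the untreated groups only.

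The log2 ratio of the summed level ran, with 1 library left out, from -2.11 to -0.97 for heterozygous over wild-type untreated tumours; from -1.05 to -0.21 for heterozygous over wild-type treated tumours; from -1.10 to -0.55 for treated over untreated wild-type tumours; from -0.63 to 0.71 for treated over untreated heterozygous tumours. Without heterozygous untreated mouse 1 it was -2.11 in untreated tumours. In treated tumours it was 0.47 per length and 1.06 without Apob, and for gemcitabine in heterozygous mice 0.87 and 1.22. Scaling by library totals moved the median of all genes in treated tumours to 0.11, against -0.03. DESeq2 called 704 genes for genotype in untreated tumours, 234 for genotype in treated tumours, 122 for the drug in wild-type tumours, 170 for it in heterozygous tumours and 656 for the difference, against 4, 1, 0, 2 and 2 with edgeR in that order. Members under 1 CPM, with 3 mice per group, limit what these tests could detect.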
